A study of Mus musculus with 2 samples.

Results

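A set of 9 genes of the tight junction were followed in colon epithelial cells of the mouse: the claudins Cldn2, Cldn3, Cldn4, Cldn7, Cldn8 and Cldn15, the occludin gene Ocln, the ZO-1 gene Tjp1 and F11r, which encodes the junctional adhesion molecule JAM-A. The members were taken by gene symbol, as all probe sets that the platform annotation ties to a single one of these symbols. All 9 were found, with 13 probe sets, among 8721 named genes. The cells came from C57BL/6 mice, an inbred laboratory strain, 7 weeks of age. They were incubated with phosphate-buffered saline (PBS) as control, or with MIF, read here as macrophage migration inhibitory factor, a cytokine. A single Affymetrix array was hybridised with RNA of each incubation (n = 1 per group). No genotype other than the strain is named. The sources used here do not give the dose and duration of MIF, the number of animals or pools, or the isolation of the cells. With 1 array a group there was no spread between samples and no test, so differences below describe these arrays alone.

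Tight junctions are the belt-like contacts that close the space between neighbouring epithelial cells at their apical side. Claudins span the membrane and form the strands of the junction. Some seal the strand, and others form pores that let ions or water pass between cells. Occludin and JAM-A are further membrane proteins of the junction, and ZO-1 lies under the membrane, where its PDZ domains bind claudin tails and tie the strands to actin. In the colon this barrier keeps bacterial products out of the mucosa and supports sodium absorption.

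Promoter sequences were read to show what the members share before their expression values are given. RefSeq promoter windows of the assembly GRCm38.p6, from 250 bases before to 50 after an annotated start, matched 8 of the 9 genes, the exception being Cldn8. The E-box CAGGTG, searched on both strands (CACCTG on the other), is the kind of site that repressors of epithelial genes such as Snail and ZEB bind. It occurred in 5 of the 8 genes, Cldn3, Cldn4, Cldn7, Ocln and F11r, and in 22.6% of the 27025 genes with such a window. The motifs were chosen after the sequences had been seen, so these counts are descriptions. The windows of 5 genes are printed 5′ to 3′ on the strand of the gene, down to base 30 after the start. Capitals mark the E-box, and in Cldn2 a TATA box. Cldn4, Cldn7, Ocln and F11r are shown as holders of an E-box and Cldn2 as a gene without one. Cldn4 lies at chr5:134946905-134947184 on the minus strand, Cldn7 at chr11:69965171-69965450 on the plus strand, Ocln at chr13:100552469-100552748 on the minus strand, F11r at chr1:171437311-171437590 on the plus strand and Cldn2 at chrX:139800558-139800837 on the plus strand.
Cldn4: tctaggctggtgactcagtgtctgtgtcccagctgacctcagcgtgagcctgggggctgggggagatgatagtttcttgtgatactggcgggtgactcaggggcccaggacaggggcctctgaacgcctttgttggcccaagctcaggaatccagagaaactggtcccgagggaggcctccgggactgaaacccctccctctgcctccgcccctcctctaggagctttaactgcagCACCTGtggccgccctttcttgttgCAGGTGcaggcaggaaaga
Cldn7: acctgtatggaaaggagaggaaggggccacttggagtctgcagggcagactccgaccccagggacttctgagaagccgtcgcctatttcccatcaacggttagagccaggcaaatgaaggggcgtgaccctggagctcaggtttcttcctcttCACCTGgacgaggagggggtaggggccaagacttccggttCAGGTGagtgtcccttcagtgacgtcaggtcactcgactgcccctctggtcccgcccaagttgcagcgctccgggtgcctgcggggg
Ocln: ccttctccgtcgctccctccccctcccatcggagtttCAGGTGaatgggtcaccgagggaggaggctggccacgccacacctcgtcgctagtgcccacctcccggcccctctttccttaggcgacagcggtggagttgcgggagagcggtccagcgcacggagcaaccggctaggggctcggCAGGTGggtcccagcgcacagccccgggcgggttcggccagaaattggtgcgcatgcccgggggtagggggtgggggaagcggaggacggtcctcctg
F11r: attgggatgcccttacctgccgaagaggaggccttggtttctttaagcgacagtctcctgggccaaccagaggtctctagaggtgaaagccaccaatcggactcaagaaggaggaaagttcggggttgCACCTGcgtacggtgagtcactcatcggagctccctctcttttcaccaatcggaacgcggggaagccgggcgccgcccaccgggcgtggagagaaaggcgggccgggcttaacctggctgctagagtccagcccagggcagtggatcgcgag
Cldn2: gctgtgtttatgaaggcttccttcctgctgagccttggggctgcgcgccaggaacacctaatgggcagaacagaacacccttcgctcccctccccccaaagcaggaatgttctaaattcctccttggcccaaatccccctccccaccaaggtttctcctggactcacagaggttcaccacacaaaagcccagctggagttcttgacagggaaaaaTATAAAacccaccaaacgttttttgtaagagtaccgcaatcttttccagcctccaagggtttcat

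Cldn4 had 2 E-boxes close to its start, with first bases at -14 and 12. Cldn7 had 2, at -97 and -57 from the second of its annotated starts. Ocln also had 2, at -213 and -68 in the window shown, and F11r had 1 at -122. In Cldn3 the E-box began at base 32 after the start, beyond the stretch that is shown for the other genes. Cldn2 was the only one of the 8 with the TATA box TATAAA (either strand), at -35, a motif held by 15.7% of all genes with a window. It was also the only one with TTTATG (either strand), a core bound by the intestinal CDX factors, found in 13.6% of all genes. The AP-1 motif TGACTCA (either strand), which Fos and Jun proteins bind, was present in Cldn4, Cldn15 and F11r, against 5.95% of all genes. None of these motifs overlapped another, and a match of letters does not show that a factor binds. In the same assembly Cldn3 and Cldn4 are direct neighbours on chromosome 5, which also carries Cldn15, and Cldn8 lies beside Cldn17 on chromosome 16.

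The whole table set the scale for the members. Signals are the intensities deposited by the authors, in arbitrary units, and a gene was assessed where at least 1 array reached a floor of 232, the 40th percentile of all signals. Of the 8721 named genes, 5839 were assessed, and their median log2 difference, MIF minus PBS, was -0.01. Of the assessed genes, 46.8% were higher on the MIF array. A gene was called different at 1.5-fold or more. By that rule 37 of the assessed genes were higher on the MIF array and 27 lower, or 28 and 32 with each array centred on its median. Over 1800 genes with several probe sets above the floor, the pooled SD of the log2 difference between probe sets of a gene was 0.15. That SD compares probe sets on the same RNA, which may also differ in what they target. It does not measure the spread between cell preparations.

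Cldn8 was higher on the MIF array, and the other assessed members differed by less than 1.2-fold by their brightest probe sets. Cldn8 is a sealing claudin of the distal colon and kidney. Its signal was 1.57-fold higher in MIF-incubated cells. Ocln, Tjp1, F11r and Cldn2 were higher by 0.08 to 0.18 on the log2 scale, and Cldn3, Cldn15 and Cldn7 were lower by -0.15 to -0.10. Cldn4 stayed below the floor on each array and was not assessed. At 1.5-fold, 1 of the 8 assessed members was called higher, against 0.634% of all assessed genes, and 0 of 8 lower, against 0.462%. At 2-fold no member was called, against 0.0685% of genes higher and 0.0856% lower. With 8 genes that share rests on Cldn8 alone. In RNA of a whole cell preparation, fewer cells of a type and less RNA per cell cannot be told apart.

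**Figure D1:**
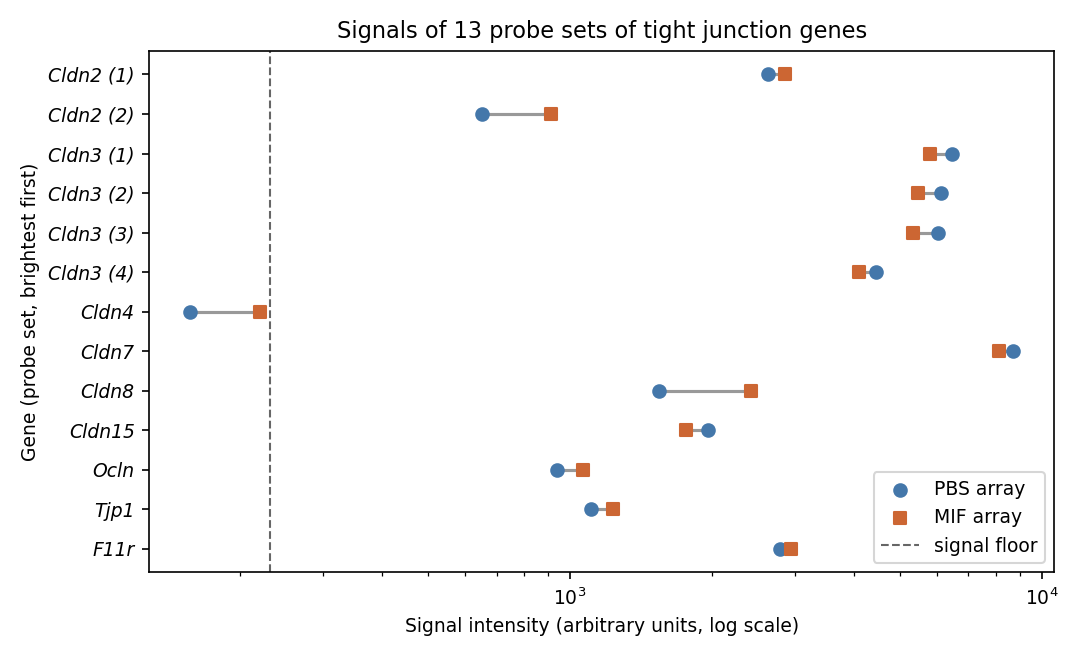
Signal intensity (arbitrary units, log axis) of each of the 13 probe sets of the 9 genes, with a circle for the PBS array and a square for the MIF array, 1 array each; probe sets of a gene are numbered from the brightest and the dashed line is the floor of 232. Cldn8 runs from 1548 to 2425, while both Cldn4 signals lie left of the floor.

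The sealing claudins did not share a direction. The Cldn8 probe set had a signal of 1548 with PBS and 2425 with MIF, a log2 difference of 0.65. This placed Cldn8 at rank 27 from the highest of 5839 assessed genes. Among the 1386 genes with the brightest signals, of 4 nearly equal groups, 95% of differences lay between -0.31 and 0.31, and Cldn8 lay outside that range. It has a single probe set, so no second measurement of the transcript was at hand.

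Cldn3, a sealing claudin abundant in gut epithelium, was measured by 4 probe sets, all of them lower on the MIF array. The brightest gave 6444 with PBS and 5791 with MIF. The next ones gave 6127 and 5480.4, then 6045 and 5327.5. The least bright gave 4461 and 4104. These correspond to log2 differences of -0.15, -0.16, -0.18 and -0.12, a range narrower than the SD of 0.15 between probe sets of a gene. Of the 4, 2 are of a type that can cross-hybridise with related transcripts, and the others gave the same direction. Each remained within the 95% range of bright genes.

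Cldn7, which binds the adhesion protein EpCAM and is found along the lateral membrane as well as in the junction, gave 8697 with PBS and 8136 with MIF. Its log2 difference was -0.10, and 54.5% of assessed genes lay at least as far from 0. Cldn4, a sealing claudin that can also bind bacterial enterotoxin, gave 157 with PBS and 220.3 with MIF. Both values were under the floor of 232. With the floor lowered to the 20th percentile of signals, 90.1, the difference of Cldn4 was 0.49, or 1.41-fold higher with MIF. With that floor Cldn4 was higher, whereas its neighbour in the genome, Cldn3, was lower, though within the 95% range of bright genes. No such range was computed for signals as low as those of Cldn4, which has a single probe set. Over all 7340 genes assessed with that floor, 98 were higher and 49 lower at 1.5-fold.

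The pore-forming claudins did not share a direction either, but by their brightest probe sets both lay within the 95% range of bright genes. Cldn2 forms a channel for small cations and water and is typical of leaky epithelia and of crypts. Its brighter probe set gave 2628 with PBS and 2852 with MIF. That log2 difference of 0.12 was matched or exceeded in size by 45.5% of assessed genes. The second gave 652 and 909.6, a difference of 0.48, or 1.40-fold. Both were higher with MIF, but they disagreed on the size by 0.36. A gap as wide between the 2 brightest probe sets of a gene was found in 5.44% of 1800 genes, whose median gap was 0.11. The mean of the Cldn2 probe sets gave a difference of 0.30. Cldn15, which forms sodium-permeable pores and is needed for normal sodium supply of the gut lumen, gave 1958 with PBS and 1762 with MIF. It was 1.11-fold lower, a log2 difference of -0.15 that 34.5% of assessed genes matched or exceeded in size.

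**Figure D2:**
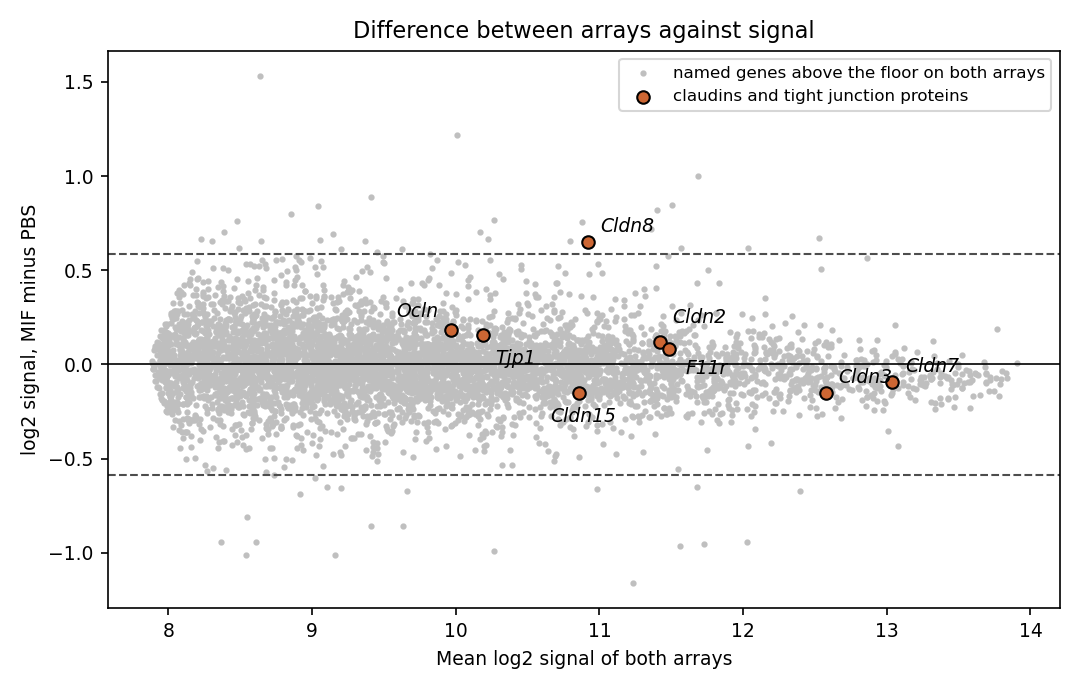
Log2 difference, MIF minus PBS, against the mean log2 signal of both arrays for the 5543 named genes above the floor on both arrays (grey points), with the 8 assessed tight junction genes as outlined points; dashed lines mark 1.5-fold. Cldn8 at 0.65 is the only outlined point past a line, and the other outlined points lie between -0.15 and 0.18.

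The members that are not claudins were all slightly higher on the MIF array, beside 46.8% of all assessed genes in that direction. Ocln, a tetraspan protein that stabilises the strand and takes part in its regulated opening, gave 939 with PBS and 1067 with MIF, a log2 difference of 0.18. Tjp1, whose product ZO-1 organises the junctional plaque, gave 1108 and 1234, a difference of 0.16. F11r, whose product JAM-A is an immunoglobulin-type adhesion molecule that is also present on leukocytes, platelets and endothelium, gave 2784 and 2943, a difference of 0.08. All these differences lay within the range that held 95% of genes of like signal, which was -0.36 to 0.37 for Ocln and Tjp1. In the order of differences, Cldn8 stood first at 0.65, followed by Ocln, Tjp1, Cldn2, F11r, Cldn7, Cldn15 and Cldn3. Apart from the step from Cldn8 to Ocln and that from F11r at 0.08 to Cldn7 at -0.10, neighbours in this order lay closer together than the SD of 0.15 between probe sets. That SD is taken about the mean of each gene, and a gap between single values spreads wider. The step from F11r to Cldn7 therefore does not divide the members. The median over the 8 assessed members was 0.10, against -0.01 over all assessed genes. It was -0.10 for the 5 claudins and 0.16 for Ocln, Tjp1 and F11r. The claudin median is the value of Cldn7, and it was -0.03 with loess and with quantile normalization. The sum of signals over all 6 claudins, at the brightest probe set of each, was 21433 with PBS and 21186 with MIF. Cldn7 and Cldn3 held most of that sum. Signals of different probe sets do not share a scale of abundance, so the sum does not measure total claudin RNA.

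Other tight junction genes were read from lists of claudins, membrane proteins, plaque and polarity proteins and regulators. Of 84 listed genes the table held 50 and 33 were assessed, 17 higher and 16 lower on the MIF array, with a median of 0.01. None of the 33 was past 1.5-fold in either direction, beside 0.634% and 0.462% of all assessed genes. At 1.2-fold, 2 were higher and 2 lower, against 6.82% and 6.29% of assessed genes. Among 33 genes a lack of calls is near those shares and is no result about the lists. By the brightest probe sets, Cldn8 was the only tight junction gene examined here with a call at 1.5-fold. The nearest of the 33 was the regulator gene Prss8, 1.43-fold higher.

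Only 3 further claudin-type genes were in the table, of 20 listed. Cldn23, expressed in surface colonocytes, gave 2034 with PBS and 2231 with MIF, a log2 difference of 0.13. Cldnd1, a claudin domain protein, gave 1847 and 1547 by its brightest probe set, a difference of -0.26, whereas its second probe set was higher by 0.11. Cldn14 was under the floor on both arrays, at 32.6 and 53.5.

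Of the other membrane proteins 7 of 12 were assessed, 4 higher and 3 lower, with a median of 0.05. Lsr, which encodes angulin-1 and recruits tricellulin to the points where 3 cells meet, gave 721 and 892, a log2 difference of 0.31. Ildr1, a second angulin, differed by 0.12. Marveld3, a relative of occludin, was lower at 393 and 309.6, a difference of -0.34. Crb3, an apical polarity protein, was lower on all 3 of its probe sets, at -0.26, -0.33 and -0.18.

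Plaque and polarity genes had 10 of 31 assessed, 5 in each direction, with a median of -0.0091. The largest differences were those of Cdk4, a cell cycle kinase that binds a ZO-1 partner (-0.29, and lower on all 3 probe sets), Arhgef18, an activator of RhoA at junctions (0.23), the atypical protein kinase Prkcz (-0.20) and the polarity scaffold Pard3 (-0.17). Tjp3, the ZO-3 gene, differed by -0.07, against 0.16 for Tjp1. The regulators had 14 of 21 assessed, 7 in each direction, with a median of 0.00071. Prss8, the membrane-anchored protease prostasin, gave 395 with PBS and 565 with MIF, a difference of 0.52. The remaining differences were smaller, with the myosin light chain kinase gene Mylk, whose product contracts the ring of actin beside the junction, at -0.20, Prkcd at 0.17 and the protease St14, or matriptase, at -0.16. Another Mylk probe set above the floor gave -0.30. Epcam, the partner of Cldn7, differed by -0.0096, at 8889 and 8830.0.

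**Figure D3:**
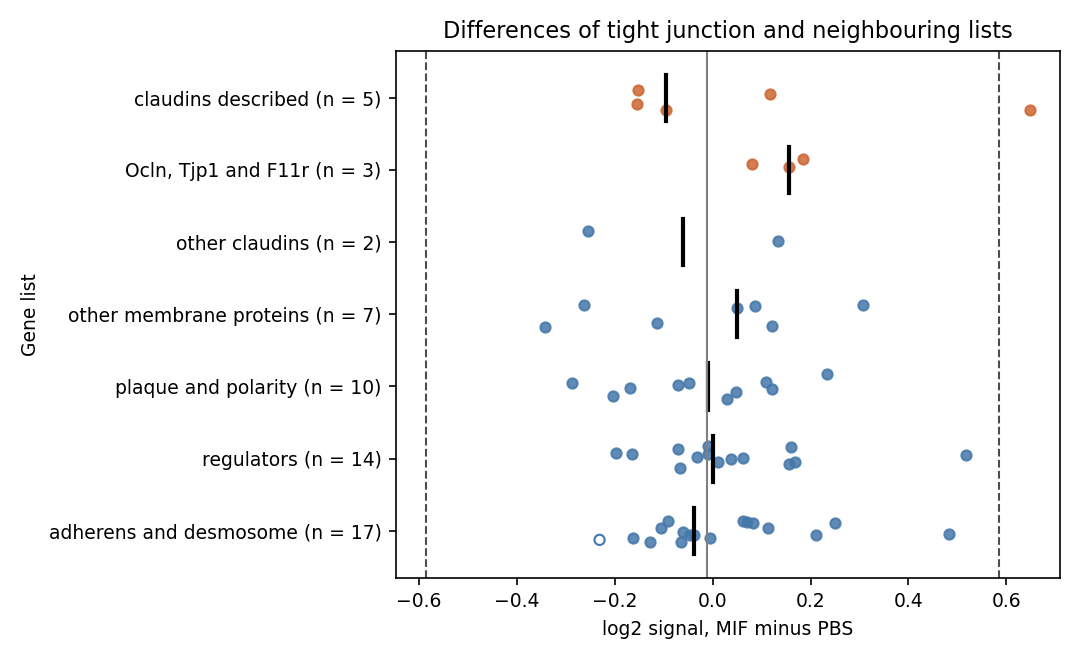
Log2 differences, MIF minus PBS, of the assessed genes of each list (1 point a gene, at its brightest probe set); orange marks the 8 genes described first, black bars are list medians, the open circle is a gene with only a bound, the grey line is the median of all assessed genes and dashed lines mark 1.5-fold. Only Cldn8 lies past a dashed line, and the medians run from -0.10 for the claudins to 0.16 for Ocln, Tjp1 and F11r.

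Adherens junctions and desmosomes, the contacts just below the tight junction, served as comparison. Of 20 listed genes 17 were assessed, 7 higher and 10 lower, where 46.8% of all assessed genes were higher. Their median was -0.04 beside 0.10 for the 8 tight junction members. None of the 17 was past 1.5-fold, beside 0.634% of all assessed genes higher and 0.462% lower. With 17 genes such a count is no result about the list. Ctnnd1, or p120 catenin, was at 0.48, the desmosomal cadherin Dsc2 at 0.25 and Cdh1, or E-cadherin, at 0.21. Another Dsc2 probe set gave 0.16. Evpl, or envoplakin, lay under the floor on the MIF array and had a bound of -0.23. The difference between the lists was not tested.

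Markers of cell types were set beside these values. For the counts below, 46.8% of all assessed genes were higher on the MIF array. General epithelial markers were high on both arrays, all 11 above the floor, with summed signals of 83668 with PBS and 80689 with MIF. Their largest differences were Krt19 at -0.23, Cdh1 at 0.21 and Vil1 at -0.08. Of 12 surface colonocyte markers 5 were higher and 7 lower, with a median of -0.03, led by Ms4a10 at -0.48, Slc51a at -0.43 and Car4 at 0.21. Crypt and cycling markers were listed together, with a median of 0.03 that joined opposed values. Their division into crypt and cycling genes was not part of the list as chosen. The 7 crypt genes were higher with MIF, from 0.02 to 0.37, led by Smoc2 at 0.37, and 2 of these values, for Lgr5 and Ascl2, are bounds. The 5 cycling genes were lower, from -0.59 to -0.16, led by Prc1 at -0.59 and Cdc20 at -0.46. Goblet markers were higher in 10 of 11 genes, led by Klk1 at 0.57, Creb3l1 at 0.55 and Clca1 at 0.51. None of the 11 was past 1.5-fold, beside 0.634% of all assessed genes higher and 0.462% lower. Summed goblet signals were 63047 with PBS and 70152 with MIF, a rise that lay largely in Klk1 and Clca1. Further Klk1 probe sets above the floor gave 0.59 and 0.13. All 13 fibroblast markers had a higher signal on the MIF array, with sums of 1085 and 2575. This count, and that of the leukocyte markers below, was taken without the floor. Without it, the median difference over all 8721 genes was 0.0039, with 455 higher and 198 lower at 1.5-fold. Of the 13 fibroblast markers, 10 were under the floor on both arrays. Dcn was at 1.53, Col3a1 at a bound of 1.26 and Vim at a bound of 0.13. Of 13 leukocyte markers 2 had a higher signal with MIF, with sums of 3832 and 2926, led by Gzma at -1.01, Gzmb at -0.94 and Mcpt2 at a bound of -0.10. The 5 endothelial markers in the table had a highest signal of 36.6. No marker was listed at 0. The part of these shifts in the differences of Cldn8, Cldn2 and the other members was not tested.

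**Figure D4:**
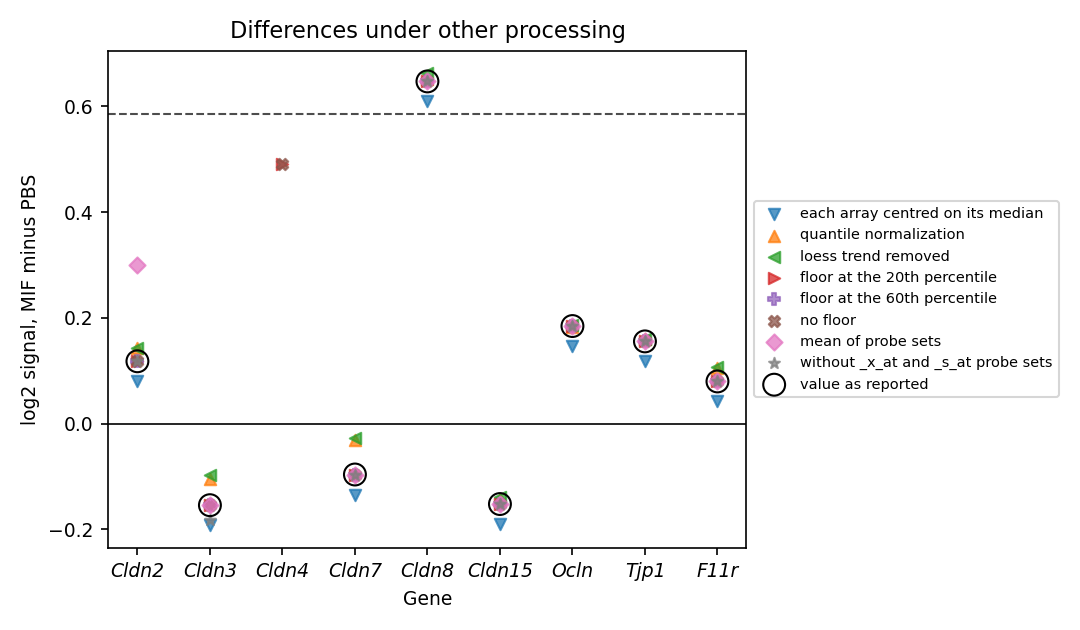
Log2 difference, MIF minus PBS, of each of the 9 genes under 8 other ways of processing (symbols) and as reported (open circles), with the dashed line at 1.5-fold. Cldn8 stays between 0.61 and 0.66, Cldn2 reaches 0.30 with its probe sets averaged, and Cldn4 has a value of 0.49 only with a lower floor or none.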

How the data were processed

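Values were the authors' deposited signal intensity of each Affymetrix probe set on a linear scale, as read from the values themselves. Per the labels' protocols, RNA was extracted with Trizol and labelled as biotinylated cRNA. The sources used here do not give the probe summary, background correction or scaling. Of 15340 probe sets, 61 controls were left out, and 14049 had 1 gene symbol in GEO's platform annotation, of which 14034 were updated by Entrez ID to GRCm38.p6 names. Median signals were 336 (PBS) and 345 (MIF), a log2 difference of 0.04, so columns were used as deposited. Signals below the 40th percentile of both arrays were raised to it, a gene took its brightest probe set, and differences are log2 MIF minus PBS. With 1 array under the floor the difference is a bound. No test was possible, and the number of arrays limits precision.

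The members and lists were chosen with earlier results of these data known. Named were all members, the 4 largest differences of each other list and the 3 largest of each marker list. Cldn14, Tjp3, Epcam and the genes of the closing section were chosen after their values were seen. Alternatives were median centring, quantile normalization, loess (span 0.3), floors at the 20th and 60th percentile or none, averaged probe sets, omission of _x_at and _s_at probe sets, and thresholds of 1.2-fold and 2-fold. Tested on simulated data for MIF against PBS with 5754 genes, all 200 genes planted at 2-fold well above the floor were found, with 0 others. The simulated noise was set below the spread of the real log2 differences, whose SD was 0.19. The simulation thus checks the code and cannot show how often calls at 1.5-fold err in these data. Tools were matplotlib 3.10.9, statsmodels 0.14.6, pandas 2.3.3 and numpy 2.4.6 in Python 3.11.15.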

Additional observations from a re-analysis of the deposited data

How the results depend on the processing

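Each of the 8 assessed members kept its direction under all 8 alternatives of scaling, floor and probe set. The floors could not move these members, whose signals lay above even the highest floor of 498. The probe set alternatives could change only Cldn2 and Cldn3, which have several probe sets. Many of the values therefore repeat the reported ones. Of 64 such values 63 moved by less than the SD between probe sets, and Cldn2 with averaged probe sets moved to 0.30. Cldn8 ran from 0.61 to 0.66 and was past 1.5-fold in all 8, of which only the alternatives of scaling could move its value. At 2-fold, 0 members were called higher. At 1.2-fold, 1 of 8 was called higher and 0 lower, beside 6.82% and 6.29% of all assessed genes, so a count of this size is no result about the members. The median of the members ran from 0.06 with centred arrays to 0.12, and that of the 5 claudins from -0.13 with centred arrays to -0.03. The median of the other claudins turned to 0.13 without a floor, where Cldn14 entered, and was 0.06 with averaged probe sets. The medians of plaque, regulator and adherens lists changed sign between settings, within -0.08 and 0.09. Over all assessed genes, calls at 1.5-fold were 37 higher and 27 lower. A floor at the 20th percentile gave 98 and 49, one at the 60th gave 19 and 12, and leaving it out gave 455 and 198. No paired analysis was possible because each group has 1 array. Low signal limits Cldn4, which had a difference only with a lower floor or none.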

Other observations

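Genes of colonic sodium absorption and its steroid control, a list added after Cldn8 and Prss8 had been seen, held 9 of 14 genes in the table, of which 8 were assessed. Of these 4 were higher and 4 lower with MIF, with a median log2 difference of 0.0010. Apart from Prss8 at 0.52, they lay close to 0. Sgk1, a kinase induced by aldosterone, differed by 0.05, Hsd11b2, which protects the mineralocorticoid receptor from glucocorticoids, by 0.02, and Scnn1a, a subunit of the epithelial sodium channel, by -0.08. Scnn1b, another subunit of that channel, was under the floor on both arrays, at 68.4 with PBS and 81.7 with MIF, and was not assessed. The sodium pump subunit Atp1b1 differed by 0.05 and the ubiquitin ligase Nedd4l by -0.13.

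Transcription factors of the colon epithelium, also added after the data were seen, were 3 higher and 3 lower. Hoxb13, a homeobox gene of the hindgut, gave 1428 with PBS and 1924 with MIF, a difference of 0.43. Cdx1, Cdx2, Hnf4a and Hoxa9 differed by 0.02, -0.02, -0.08 and 0.0076, and the vitamin D receptor gene Vdr by -0.17. Of the repressors that bind E-boxes, Zeb1, Zeb2 and Twist1 were in the table and under the floor on both arrays, with a highest signal of 40.9.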
